A study of Rattus norvegicus with 69 samples.

Results

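Mif, Il11 and Prok2 encode 3 secreted signalling proteins whose RNA differed sharply between 2 neighbouring steps of rat sperm development, the pachytene spermatocyte in meiotic prophase and the round spermatid that follows meiosis. The genes were chosen for that difference, by symbol, from the annotation of an Affymetrix rat array. Each had 1 probe set, Mif 1367609_at, Il11 1369534_at and Prok2 1369622_at, so that 3 of 14217 named genes, or 3 of 31042 probe sets, are described. RNA was measured on 69 arrays, 1 per sample. Seminiferous tubules of Sprague Dawley rats gave 49 samples, dissected under transillumination into 10 stage groups of 5 samples each, with 4 for IV-V. The groups began with I, II-III, IV-V and VI. Stage VII was split into VIIa.b and VIIc.d, and VIII, IX-XI, XII and XIII-XIV closed the cycle. Every tubule sample pooled tubules of 2 rats aged 55 to 60 days. Isolated cells were 4 samples of Sertoli cells (about 85% pure per the labels), 4 of pachytene spermatocytes, 4 of round spermatids and 3 of spermatogonia plus early spermatocytes. The germ cells came from dispersed testes by centrifugal elutriation at a stated purity of 85% to 95%. Spermatogonia plus early spermatocytes were from rats aged 18 to 20 days and the other cells from rats aged 55 to 60 days. Whole testis gave 5 samples, for which the labels name neither strain nor age. No genetic change or agent was named for any group. The group called IX-XI here carries that range in its titles and IX-XII in another label.

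MIF, macrophage migration inhibitory factor, is a cytokine kept ready in the cytoplasm that acts through CD74 with CD44 and through chemokine receptors, and in the adult rat testis it is known from Leydig cells, the steroid-making cells between the tubules. Interleukin 11 belongs to the cytokines that share the receptor subunit gp130 (Il6st); it binds its own receptor chain, Il11ra1, and acts through JAK kinases and STAT3. Prokineticin 2, the mammalian counterpart of the amphibian peptide Bv8, acts on the G protein-coupled receptors Prokr1 and Prokr2 and is known for olfactory bulb development and circadian output. In the tubule, round spermatids are present from stage I to stage VIII and elongate from stage IX on, while pachytene spermatocytes enlarge up to stage XII and the meiotic divisions take place at stage XIV. Tubules and testis are mixtures, in which fewer cells of a type and less RNA per cell cannot be told apart.

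The sequences just upstream of the 3 genes are shown because the 3 genes differed in which cells and stages had their highest signal. They are the 250 bases before the annotated start in RefSeq, assembly GRCr8, each 5′ to 3′ along its gene. Capitals mark matches on either strand to CRE (TGACGTCA), AP-1 (TGAGTCA), the E-box (CACGTG), the GC box (GGGCGG) and TATA (TATAA), motifs chosen after these sequences were read.
Mif, chr20:12790107-12790356, plus strand: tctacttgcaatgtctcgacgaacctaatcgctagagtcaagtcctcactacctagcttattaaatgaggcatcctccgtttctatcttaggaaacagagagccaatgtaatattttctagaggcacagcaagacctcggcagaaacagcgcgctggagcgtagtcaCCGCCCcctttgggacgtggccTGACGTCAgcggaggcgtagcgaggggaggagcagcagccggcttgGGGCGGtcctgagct
Il11, chr1:78098372-78098621, plus strand: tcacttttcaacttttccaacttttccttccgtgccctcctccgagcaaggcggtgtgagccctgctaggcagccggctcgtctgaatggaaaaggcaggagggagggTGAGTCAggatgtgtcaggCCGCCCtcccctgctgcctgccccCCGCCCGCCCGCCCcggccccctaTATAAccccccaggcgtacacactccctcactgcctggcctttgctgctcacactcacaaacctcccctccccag
Prok2, chr4:133917934-133918183, minus strand: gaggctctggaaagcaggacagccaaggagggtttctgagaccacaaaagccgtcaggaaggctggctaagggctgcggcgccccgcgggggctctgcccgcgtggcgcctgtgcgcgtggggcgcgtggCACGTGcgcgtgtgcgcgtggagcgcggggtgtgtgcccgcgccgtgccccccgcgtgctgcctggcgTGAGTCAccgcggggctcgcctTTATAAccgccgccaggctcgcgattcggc
Mif held 1 CRE, which begins 61 bases before the start, and 2 GC boxes, with no match to the other 3 motifs. Il11 held 1 AP-1 match, 142 bases before the start, 1 TATA and 4 GC boxes, of which those at 99, 95 and 91 bases overlap. In Prok2 there were 1 AP-1 match at 52 bases, 1 E-box at 120 bases and 2 overlapping TATA matches at 30 and 29 bases, and no GC box. Among 27457 annotated starts, 1.7% held CRE in the same window, 3.98% AP-1, 5.79% the E-box, 32.4% the GC box and 24.1% TATA. The windows were 54.8% G and C in Mif, 63.6% in Il11 and 72.4% in Prok2. A match describes the letters only.

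Levels are array signals, scaled to the same mean in every array, and are given as mean ± SD of a group's samples. Replicate values run in the order of the label numbers. The signals came without calls of present or absent, and those below about 5.11, the 10th percentile of all values, were not shown to lie above background. The array median ranged from 30.9 to 58.2. GAPDH controls gave a 3′ over 5′ ratio, which goes up with RNA degradation, of 2.13 ± 0.306 (n = 4) in round spermatids and 1.22 ± 0.193 (n = 4) in pachytene spermatocytes. Beta-actin controls went the other way, with ratios of 1.77 to 1.99 in round spermatids and 2.02 to 2.56 in pachytene spermatocytes. Among tubule samples, replicates 2 and 3 of VIIc.d and of IX-XI had raised control ratios. Their beta-actin ratios were 2.65 to 2.86 and their GAPDH ratios 1.36 to 2.05. Beta-actin was at most 2.26 in the other tubule samples. Marker genes of round spermatids (4 of 6 measured) summed to 7350 to 7791 in round spermatids, 748 to 1340 in pachytene spermatocytes and 94.6 to 164 in spermatogonia plus early spermatocytes. The pachytene list (5 of 6 measured) did not separate those cells from round spermatids, with sums of 5581 to 7517 and 5727 to 6023: Mybl1 was 736 in pachytene spermatocytes and 109 in round spermatids, but Ccna1 770 and 1600. Spermatogonial markers (4 of 6 measured) summed to 756 to 1124 in spermatogonia plus early spermatocytes and to more, 1412 to 1780, in Sertoli cells, where Uchl1 was 1181 against 451, while Kit (150 against 42.9) and Sohlh1 (102 against 59.5) were higher in the germ cells. Leydig cell markers (6 of 6 measured) summed to 4606 to 6420 in spermatogonia plus early spermatocytes, 4689 to 6171 in Sertoli cells and 218 to 369 in pachytene spermatocytes. Sertoli cell markers (6 of 8 measured) summed to 8715 to 12468 in Sertoli cells and to 2395 to 3226 in spermatogonia plus early spermatocytes. The Sertoli cell samples also had markers of peritubular myoid cells (5 of 5 measured), at 2185 to 5288, and of endothelial cells (5 of 6 measured), at 578 to 1650. In the stage groups these sums were 340 to 695 and 52.1 to 223. Their part in the levels of the 3 genes was not tested.

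**Figure D1:**
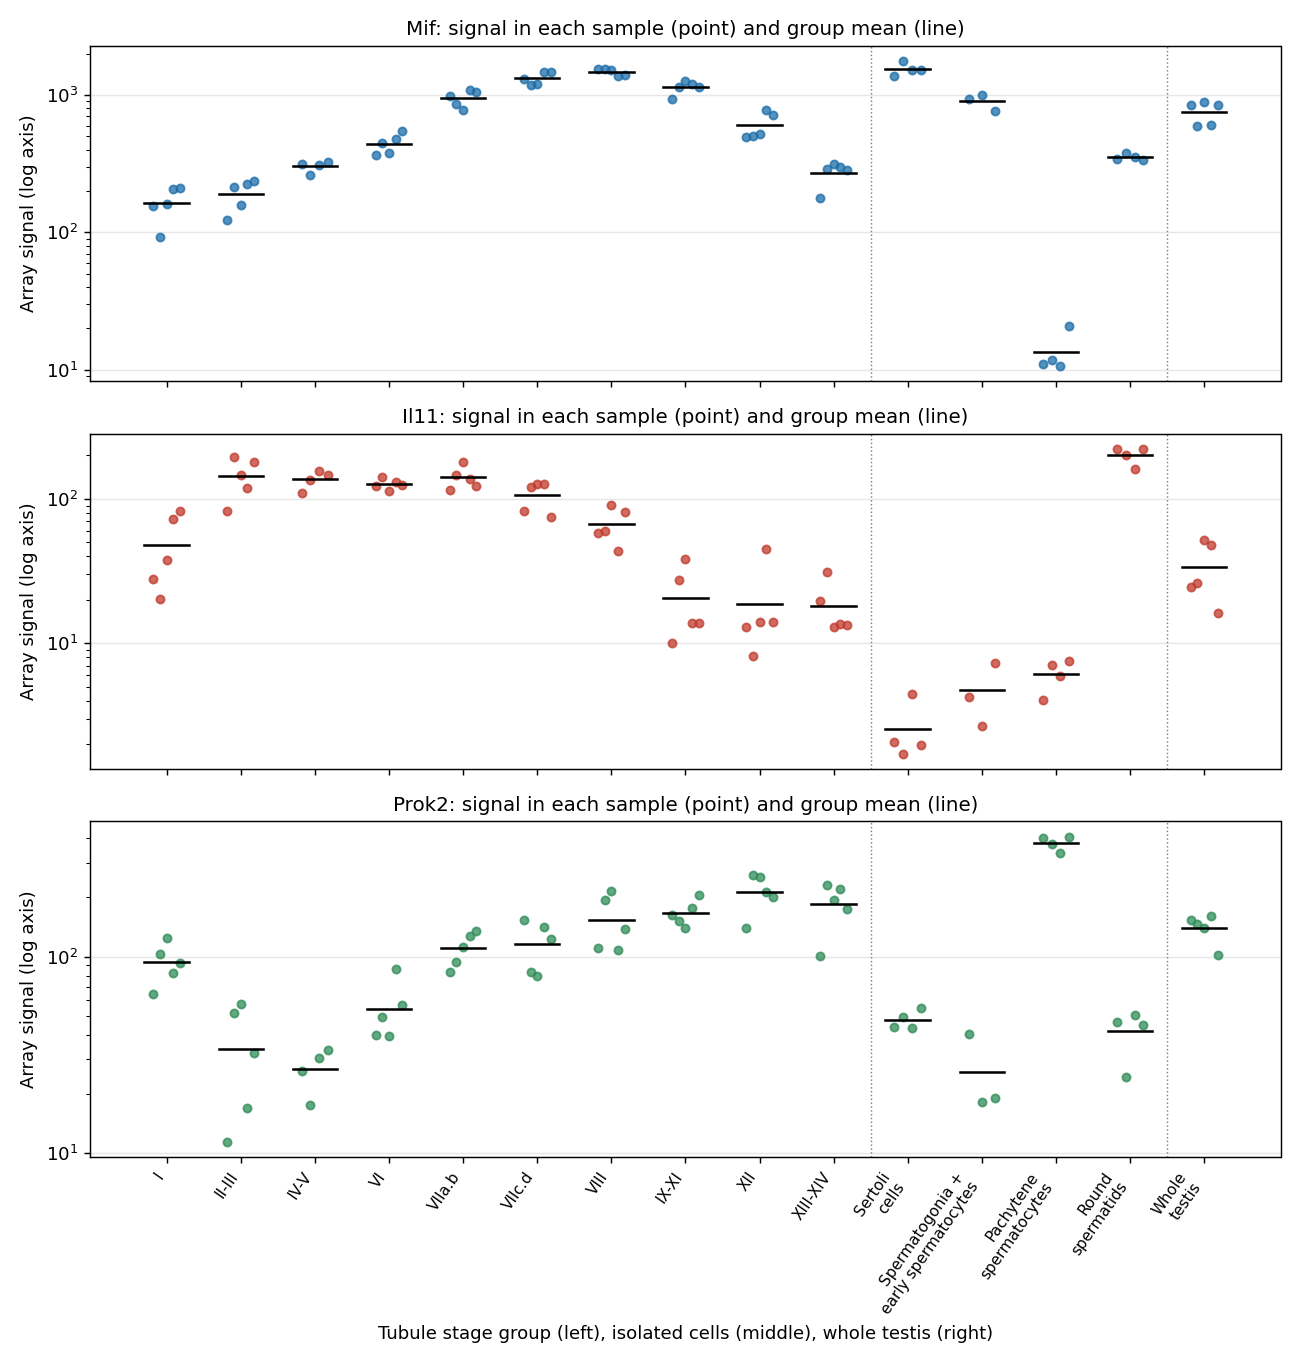
Array signal (log axis) of Mif, Il11 and Prok2 in each of the 69 samples, as points, with the group mean as a line; tubule stage groups are on the left, isolated cells in the middle and whole testis on the right. Mif was highest in Sertoli cells and at stage VIII and lowest in pachytene spermatocytes, Il11 was highest in round spermatids, and Prok2 was highest in pachytene spermatocytes.

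Among isolated cells, Mif had its highest signal in Sertoli cells, followed by spermatogonia plus early spermatocytes and round spermatids, and was near the low end of the array in pachytene spermatocytes. Sertoli cells had signals of 1386, 1765, 1534 and 1515, a mean of 1550 ± 158 (n = 4). Spermatogonia plus early spermatocytes had 930, 1001 and 767 (899 ± 120, n = 3). Round spermatids had 344, 376, 356 and 338 (353 ± 16.5, n = 4), and pachytene spermatocytes 10.96, 11.7, 10.6 and 20.8 (13.5 ± 4.88, n = 4). All 4 groups lay apart from their neighbours in this order, with no overlap between samples. The ratio of mean signals between round spermatids and pachytene spermatocytes was 26.1, a log2 difference of 4.30 after 5.11 was added to each signal. This difference chose the gene and carries no test.

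Il11 was found at a clear level in round spermatids alone among the isolated cells. The 4 samples of round spermatids had signals of 221, 201, 162 and 222 (202 ± 28.3). Pachytene spermatocytes had 4.05, 7.10, 5.99 and 7.52 (6.17 ± 1.55), spermatogonia plus early spermatocytes 4.24, 2.67 and 7.27 (4.73 ± 2.34), and Sertoli cells 2.08, 1.72, 4.45 and 1.99 (2.56 ± 1.27). The samples of these last 3 groups overlapped with those of the next in order and lay near or under 5.11. The gene was chosen by the difference between round spermatids and pachytene spermatocytes, whose size is not settled by a pachytene signal this weak: on the log2 scale it was 4.20 with 5.11 added, 4.84 with 1 added and 2.29 with the table median added.

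Prok2 had its highest level in pachytene spermatocytes, at 402, 374, 335 and 409 (380 ± 33.2). Sertoli cells had 43.9, 49.2, 43.2 and 54.4 (47.7 ± 5.25), round spermatids 46.5, 24.3, 50.5 and 44.9 (41.5 ± 11.8) and spermatogonia plus early spermatocytes 40.1, 18.1 and 18.9 (25.7 ± 12.5). The samples of the latter 3 groups overlapped with their neighbours in the order, and all lay below every pachytene sample. Round spermatids were lower than pachytene spermatocytes by a log2 difference of -3.08, and the ratio of mean signals was 9.15. Of 20253 probe sets in the fit of the 15 isolated cell samples, 8.9% were at least 2-fold higher and 13.1% at least 2-fold lower in round spermatids at an adjusted p under 0.05, figures given only as the setting in which the 3 genes were picked.

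Spermatogonia plus early spermatocytes against Sertoli cells is a comparison that the rule for choosing the genes did not use. Here and for the list genes below, it sets rats of 18 to 20 days against rats of 55 to 60 days. Age and cell type cannot be told apart in it. Mif was lower in the germ cells by a log2 difference of -0.79 ± 0.15 (SE; limma adjusted p = 2.57e-04), and 3 of 3 samples lay below all 4 Sertoli samples, but it did not reach the 2-fold difference required for a call. For Prok2 the log2 difference was -0.84 ± 0.24 (SE; limma adjusted p = 0.0056), also under 2-fold, with all 3 samples below the lowest Sertoli sample. It passed 2-fold without replicate 1 of the germ cells, the sample with 40.1, at a log2 difference of -1.15. Il11 had at most 7.27 in any sample of both groups and passed the filter on low signal only through round spermatids, so that no difference could be read for it. Of all probe sets, 36.9% were called in this comparison, and neither Mif nor Prok2 was. Beside the Mif levels stand the Leydig marker sums given above, which were similar in both groups. Sertoli cell markers summed to 2395 to 3226 in the germ cells and 8715 to 12468 in Sertoli cells. The part of either list in the levels was not tested.

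Along the cycle, the 3 genes followed 3 different courses. Mif climbed from stage I to a peak at stage VIII and fell to stages XIII-XIV, Il11 was high from II-III to VIIa.b and low from IX-XI to XIII-XIV, and Prok2 was lowest at IV-V and highest at XII. The tubule samples did not enter the contrast that chose the genes, but they hold the same cell types, so that the stage tests are not independent of that choice. The genes were also chosen with earlier results of these data known. All 3 genes passed the filter on low signal and limma's F-test over the 10 stage groups with at least 2-fold between the highest and the lowest stage, as did 32.5% of the 22258 probe sets tested. Their ranges were wide: 1.89% of probe sets had a larger range than Mif, 3.14% than Prok2 and 3.22% than Il11. The median log2 range of all tested probe sets was 0.89.

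**Figure D2:**
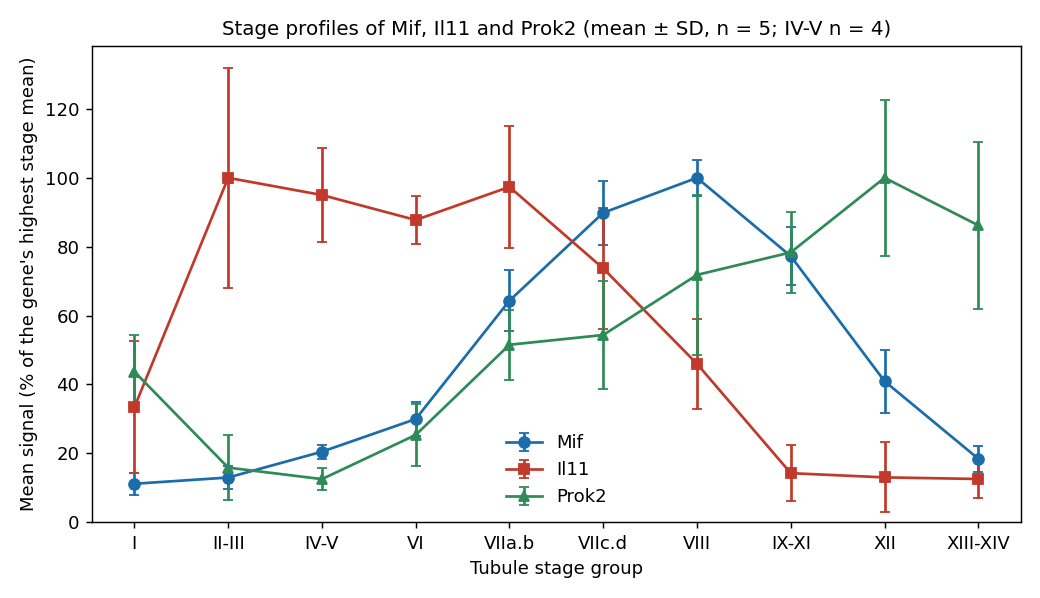
Mean signal of Mif, Il11 and Prok2 in each tubule stage group as a percent of the gene's own highest stage mean, with SD bars (n = 5, and 4 at IV-V). Il11 stood at 87.8% to 100% from II-III to VIIa.b, Mif reached 100% at VIII and Prok2 at XII.

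Mif had its lowest stage mean at stage I, with samples of 157, 92.1, 161, 205 and 210 (165 ± 47.5, n = 5). At stage VIII the samples were 1544, 1541, 1513, 1383 and 1407 (1478 ± 76.9, n = 5). Every stage VIII sample was thus above every stage I sample, and the log2 range was 3.18, or 9.03-fold with 5.11 added (limma F-test adjusted p = 2.66e-26). In between, the means were 192 ± 48.6 at II-III, 303 ± 29.5 at IV-V (n = 4), 443 ± 73.4 at VI, 951 ± 130 at VIIa.b and 1328 ± 137 at VIIc.d. After stage VIII they went down over 1142 ± 125 at IX-XI and 605 ± 135 at XII to 272 ± 54.8 at XIII-XIV. Of the 9 neighbouring pairs in the order of stage levels, samples were apart in 2, VIIa.b over XII and VI over IV-V, and overlapped in 7.

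Mif rose in mean at every step from stage I to stage VIII, and the largest of these steps, at the start of stage VII, was the step called. From VI to VIIa.b it rose by a log2 difference of 1.10 ± 0.16 (SE; limma adjusted p = 1.57e-06), a step at which 1.42% of probe sets were called higher, and all 5 samples at VIIa.b (781 to 1082) lay above all 5 at VI (366 to 545). From XII to XIII-XIV it fell by 1.14 ± 0.16 on the log2 scale (limma adjusted p = 1.87e-06), where 0.566% of probe sets were called lower. Here the samples went from 499, 501, 524, 780 and 722 to 177, 289, 314, 299 and 283, without overlap. Without replicate 1 of XIII-XIV, the sample with 177, the difference was -0.99 and the 2-fold call was lost. The fall from IX-XI to XII, at -0.93 ± 0.16 (limma adjusted p = 6.35e-05), missed 2-fold, but met it without replicate 1 of IX-XI (-1.001) or replicate 4 of XII (-1.03). From II-III to IV-V and from XIII-XIV to I the test was passed with less than 2-fold, at 0.68 and -0.73. The remaining 5 steps had adjusted p of 0.0616 to 0.764.

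Mif did not separate stages with round spermatids from those without. Averaged over stages I to VIII against IX-XI, XII and XIII-XIV, its log2 difference was -0.19 ± 0.08 (SE; limma adjusted p = 0.054). Sertoli cell markers also changed along the cycle: their summed signal was 1444 to 1721 at II-III, 3604 to 3910 at VIIa.b and 2138 to 2413 at VIII. The sum mostly followed Ctsl, with means of 167, 2021 and 465 at these stages. Cldn11 was also highest of them at VIIa.b (788, 1104 and 967). Of these stages, Shbg was highest at VIII (194, 276 and 467), as were Wt1 and Rhox5, and Inha was lowest at VIIa.b (272, 111 and 178). Over all stages, Rhox5 was highest at VIIc.d (82.7), and Shbg was 279 at stage I and 141 at IV-V and at VI. Leydig markers summed to 193 to 322 at stage VIII and 193 to 281 at stage I, where Mif differed most. The part of the Sertoli cell markers in the course of Mif was not tested.

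Il11 was at a plateau through the first part of the cycle. Samples at II-III had 82.1, 196, 147, 119 and 180 (145 ± 46.1, n = 5), and those at VIIa.b 116, 148, 181, 137 and 122 (141 ± 25.7, n = 5). Means at IV-V and VI were 138 ± 19.9 (n = 4) and 127 ± 10.2, and samples of these 4 stage groups overlapped. At XII the samples were 13.0, 8.20, 14.2, 44.7 and 14.2 (18.9 ± 14.7), close to 20.6 ± 11.8 at IX-XI and 18.2 ± 7.82 at XIII-XIV. On the log2 scale VIIa.b was the highest and XII the lowest stage, with a difference of 2.76, or 6.75-fold with 5.11 added (limma F-test adjusted p = 4.08e-16), while by mean signal II-III was the highest and XIII-XIV the lowest.

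Il11 changed at 3 of the 10 steps. Between stage VIII, with 57.8, 59.8, 90.8, 43.5 and 81.1 (66.6 ± 19.0), and IX-XI, with 10.03, 27.5, 38.1, 13.8 and 13.7, all samples were apart and the signal fell by 1.55 ± 0.30 on the log2 scale (SE; limma adjusted p = 9.21e-05). Replicates 2 and 3 of IX-XI, with 27.5 and 38.1, had raised control ratios, and the step was also called without the tubule samples with such ratios. At that step 2.46% of probe sets were called lower. It rose from XIII-XIV to I by 1.09 ± 0.30 (limma adjusted p = 0.0129; 0.867% of probe sets called higher) and from I to II-III by 1.59 ± 0.30 (limma adjusted p = 4.99e-05; 2.33% called higher). Stage I was uneven, with 28.0, 20.3, 38.0, 73.1 and 82.3, and overlapped with both neighbours. Without its replicate 4 or 5 the first of these rises was 0.91 or 0.87 and no longer passed limma's test (adjusted p = 0.0699 and 0.0817, in a range of 0.0024 to 0.0817 over all 57 settings).

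Stages that hold round spermatids had more Il11 than the stages that do not. The log2 difference was 2.22 ± 0.14 (SE; limma adjusted p = 1.56e-18), and 3.44% of probe sets were called higher in this comparison. The lowest sample of stages II-III to VIII was 43.5 and the highest of IX-XI to XIII-XIV was 44.7, the sample of XII that stood apart from the others there, while stage I overlapped with the low stages. The summed signal of round spermatid markers ran from 1481 to 2395 at stage I and 11150 to 12670 at VI to 2187 to 2391 at XIII-XIV. Between stage I and XIII-XIV, where these markers overlapped, Il11 differed by 2.13-fold with 5.11 added. Its samples overlapped there too, and the call was lost without replicate 4 or 5 of stage I. The part of the round spermatid markers in the levels of Il11 was not tested.

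Over the stages Prok2 and Il11 had a Pearson correlation of -0.77 over the 10 stage means of log2 signal, a description with no test, since both were read from the same tubule samples. Its lowest mean was at IV-V, where the 4 samples had 26.1, 17.4, 30.4 and 33.2 (26.8 ± 6.88). Its highest was at XII, with 140, 259, 255, 212 and 201 (214 ± 48.3, n = 5). The samples of both stages were apart, with a log2 range of 2.78, or 6.85-fold with 5.11 added (limma F-test adjusted p = 1.46e-14). From IV-V on the means went up over 54.2 ± 19.4 at VI, 110 ± 21.7 at VIIa.b, 116 ± 33.7 at VIIc.d, 153 ± 49.7 at VIII and 167 ± 25.2 at IX-XI. After XII they were 184 ± 51.7 at XIII-XIV, 93.5 ± 22.7 at I and 33.9 ± 20.3 at II-III. At VIIc.d the samples with raised control ratios, replicates 2 and 3, had 83.1 and 79.6, and the others 123 to 154. In the order of stage levels, samples overlapped in all 9 neighbouring pairs, so that stages of neighbouring level are not resolved. Along the cycle, samples were apart between IV-V (at most 33.2) and VI (at least 39.1), and between I and II-III.

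A single step was called for Prok2. From stage I, with 64.1, 103, 125, 82.8 and 92.4, to II-III, with 11.4, 51.5, 57.3, 16.9 and 32.3, it fell by 1.49 ± 0.27 on the log2 scale (SE; limma adjusted p = 2.47e-05), with no overlap and 1.31% of probe sets called lower at this step. The step from VI to VIIa.b, at 0.99 ± 0.27 (limma adjusted p = 0.00842), was just under 2-fold and passed it without replicate 4 or 5 of VI or replicate 1 or 2 of VIIa.b (1.02 to 1.16). From XIII-XIV to I the difference of -0.92 ± 0.27 (limma adjusted p = 0.0218) passed 2-fold without replicate 3 of stage I (-1.03) or replicate 1 of XIII-XIV (-1.12). Over stages I to VIII against the later 3 groups, Prok2 was lower in the stages with round spermatids by a log2 difference of -1.35 ± 0.13 (SE; limma adjusted p = 1.09e-12), as were 2.39% of probe sets. With the table median added to each signal in place of 5.11, that difference was -0.95, short of 2-fold.

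**Figure D3:**
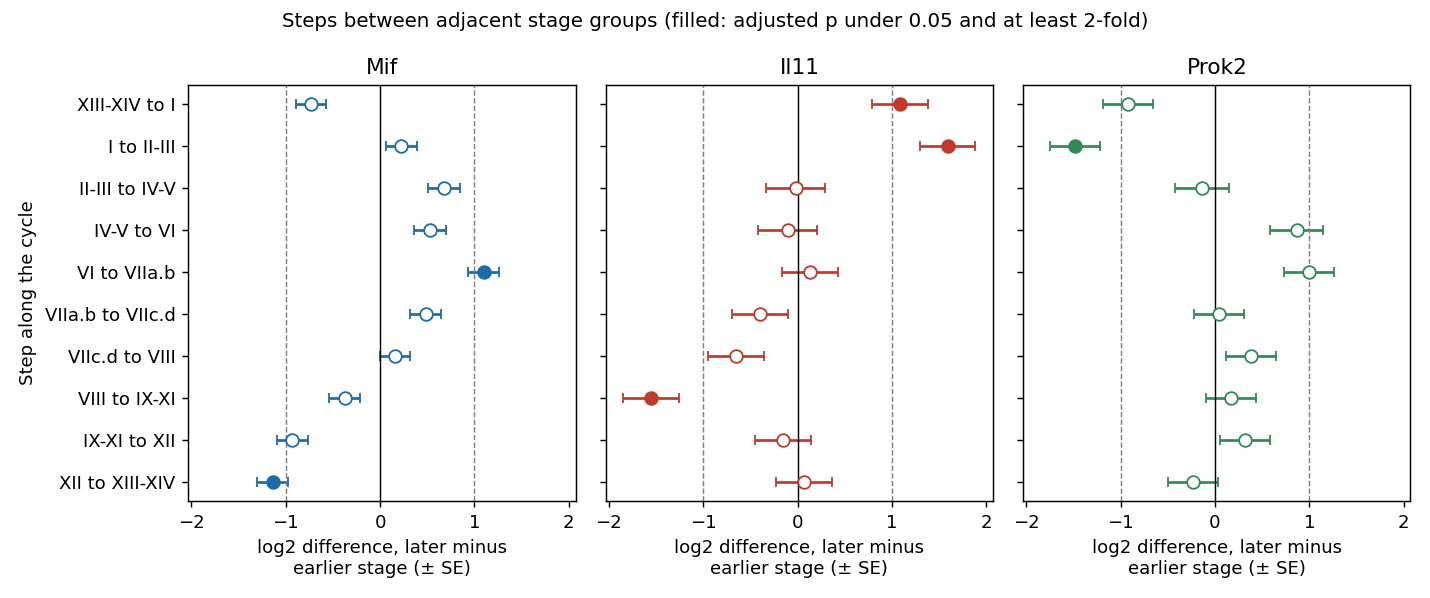
Log2 difference (± SE) of Mif, Il11 and Prok2 at each of the 10 steps between adjacent stage groups, later minus earlier stage, with dashed lines at 2-fold. Filled points, called at an adjusted p under 0.05 and at least 2-fold, number 2 for Mif, 3 for Il11 and 1 for Prok2.

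Whole testis, which holds interstitial cells as well as tubules, did not differ from the mean of the 10 stage groups by 2-fold for any of the 3 genes. In that mean each stage group counts equally, and their shares of the testis were not measured here. Mif had 845, 591, 886, 604 and 843 (754 ± 144, n = 5), a log2 difference of 0.52 ± 0.12 (SE; limma adjusted p = 8.08e-04). Prok2 had 154, 146, 139, 160 and 102 (140 ± 22.7), a log2 difference of 0.55 ± 0.19 (limma adjusted p = 0.0215). Both means lay inside the range of the stage means, as did that of Il11. Il11 was lower than the stage mean, with 24.6, 26.2, 52.4, 48.4 and 16.1 (33.5 ± 15.9) and a log2 difference of -0.88 ± 0.23 (limma adjusted p = 0.00215), and it passed 2-fold without replicate 3 (-1.04) or replicate 4 (-1.02). In all, 3.51% of 22504 probe sets were called, 2.31% as higher and 1.2% as lower in whole testis. Leydig markers summed to 1756 to 2392 in whole testis and to 193 to 353 in the stage groups, and their part in the Mif difference was not tested.

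The partners of the 3 proteins were followed in lists of 42 genes, of which 36 were measured. None of 28 tested was called between round spermatids and pachytene spermatocytes, where 22% of probe sets were, although 7 passed limma's test under 2-fold and 11 had an unadjusted p under 0.05. The median log2 difference of the tested list genes was -0.26, against -0.06 over all probe sets. Tyk2, for a JAK family kinase, was called lower without replicate 2 of round spermatids (-1.001). Over stages, 7 of 26 were called, or 2 of 5 in the MIF list, 5 of 14 in that of IL-11 and its family and 0 of 7 in the prokineticin list, beside 32.5% of all probe sets, and the median log2 range of 0.88 was close to the 0.89 over all. Between stages with and without round spermatids 0 of 26 were called, with 9 passing limma's test under 2-fold and 10 at an unadjusted p under 0.05, against 5.83% of probe sets called.

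Ddt, for D-dopachrome tautomerase, the close relative of MIF, had a course of its own. It was highest at XIII-XIV, at 857 to 958 (925 ± 40.9, n = 5), and lowest at VIIc.d, at 297 to 404 (348 ± 46.4), with 356 ± 30.8 at VIIa.b and 349 ± 22.3 at VIII. Its log2 range was 1.41 (limma F-test adjusted p = 1e-26). In pachytene spermatocytes Ddt was 845 ± 77.2 (n = 4), and in round spermatids 692 ± 11.4 (limma adjusted p = 0.0828). Ddt was 1010 ± 105 in Sertoli cells and 444 ± 111 (n = 3) in spermatogonia plus early spermatocytes, a log2 difference of -1.20 (limma adjusted p = 1.06e-06).

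Among the receptors for MIF, Cxcr4, a chemokine receptor, peaked at the same stage as Mif in the probe set read, 1 of 3. At stage VIII its signal was 75.4 to 99.5 (90.1 ± 9.13, n = 5), and at VI 4.88 to 38.2 (20.1 ± 13.9), without overlap, a log2 range of 2.12 (limma F-test adjusted p = 1.73e-10). In Sertoli cells Cxcr4 was 474 ± 104 (n = 4), and it was lower in spermatogonia plus early spermatocytes (51.4 ± 12.1, n = 3) with a log2 difference of -3.08 (limma adjusted p = 1.28e-08). Cd74, the main binding partner of MIF and also the chaperone of class II molecules, was 575 ± 45.9 (n = 3) in spermatogonia plus early spermatocytes, 156 ± 11.5 in Sertoli cells and 19.8 to 34.8 in stage group means. It was higher in the former than in Sertoli cells by a log2 difference of 1.85 (limma adjusted p = 6.67e-06), and higher in whole testis (159 ± 44.4, n = 5) than in tubules by 2.50 (limma adjusted p = 1.61e-07). Macrophage and blood markers, 9 of 9 measured, summed to 1978 to 2453 in spermatogonia plus early spermatocytes, 1086 to 1231 in Sertoli cells, 646 to 810 in whole testis and 256 to 760 in the stage groups, and their part in the Cd74 levels was not tested. Cd44, the co-receptor, was higher in spermatogonia plus early spermatocytes than in Sertoli cells by 1.68 (limma adjusted p = 6.68e-04), and was not called over stages. Cxcr2 was below the filter in all fits, and Ackr3 in those of tubules. Cops5, a signalosome subunit that binds MIF inside cells, passed the stage test under 2-fold (0.63).

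For interleukin 11, the specific receptor chain gene Il11ra1 was lowest at IV-V and highest at IX-XI, with a like mean of 67.3 at VIIc.d. Its means were 19.3 ± 11.3 (n = 4) at IV-V and 67.5 ± 16.0 (n = 5) at IX-XI, a log2 range of 1.68 (limma F-test adjusted p = 1.82e-04), and the samples of both stages did not overlap (5.86 to 32.3 and 47.8 to 84.5). Pachytene spermatocytes had 74.0 ± 12.3 and round spermatids 40.9 ± 11.6, under 2-fold on the log2 scale (-0.80, limma adjusted p = 0.00545). Il6st, for gp130, was 948 ± 70.8 (n = 3) in spermatogonia plus early spermatocytes, 474 ± 81.3 (n = 4) in Sertoli cells, then 61.1 ± 6.71 in pachytene spermatocytes and 44.6 ± 22.2 in round spermatids. The first pair differed by 1.01 on the log2 scale (limma adjusted p = 0.0118), a call lost without Sertoli replicate 2 (0.89) or germ cell replicate 2 (0.95), and with the replicate block (0.87). Also higher in spermatogonia plus early spermatocytes than in Sertoli cells were Cntfr, a ciliary neurotrophic factor receptor chain (2.32, limma adjusted p = 3.18e-05), Ebi3, a cytokine subunit (1.52, adjusted p = 1.35e-05), and Lif, for leukaemia inhibitory factor (1.43, adjusted p = 2.41e-04; 0.69 and no call with quantile normalization). In whole testis, the kinase genes Jak1 (1.06, limma adjusted p = 3.4e-09) and Jak2 (1.24, adjusted p = 0.00181) were higher than in tubules, with the call of Jak1 lost without whole testis replicate 3 or 5 (0.995 and 0.939), or with quantile normalization (0.993). Jak2 was below the filter in the fit of tubules alone and passed it here only with the whole testis samples, so that its call is no independent evidence of a difference. Over stages Tyk2, Ebi3, Ctf1 and Pias3 were called with log2 ranges of 1.12 to 1.54, and the call was lost for Ctf1 without replicate 2 of IV-V (0.95) and for Pias3 without replicate 1 or 5 of stage I. With the table median added to each signal, all of these stage calls and that of Il11ra1 fell short of 2-fold. The log2 ranges were then 0.69 for Tyk2, 0.70 for Ebi3, 0.62 for Ctf1, 0.55 for Pias3 and 0.82 for Il11ra1. In the cell and whole testis comparisons it also removed the calls of Il6st (0.95), Lif (0.57), Ebi3 (0.92), Jak1 (0.86) and Jak2 (0.54).

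The receptor genes of prokineticin 2 had stage means near or under the table median of 43.7. Prokr1 had stage means of 27.1 to 63.7 and did not pass the F-test (log2 range 1.15, limma adjusted p = 0.0909), though it was called without replicate 2 of II-III. In isolated germ cells Prokr1 was 34.4 ± 26.8 (n = 3) in spermatogonia plus early spermatocytes, 39.6 ± 10.8 (n = 4) in pachytene spermatocytes and 36.7 ± 4.58 (n = 4) in round spermatids, and 4.89 ± 2.45 (n = 4) in Sertoli cells. Prokr2 and Prok1, for the related ligand prokineticin 1, stayed below the filter in every fit, with stage means of 7.90 to 24.2 and 19.8 to 27.7. Of the transducers, Plcb4, for a phospholipase C downstream of Gq, was called over stages in some of the fits that left samples out, but not with all samples. Gnaq, for the alpha subunit of Gq, was 64.2 to 73.3 in spermatogonia plus early spermatocytes and 23.1 to 35.7 in Sertoli cells. It passed the filter on low signal only through those 3 germ cell samples, so that its call as higher in them is no independent evidence of a difference. In that comparison 9 of 28 tested list genes were called, 7 higher, Gnaq among them, and 2 lower, beside 24.9% of all probe sets called higher and 12% lower.

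**Figure D4:**
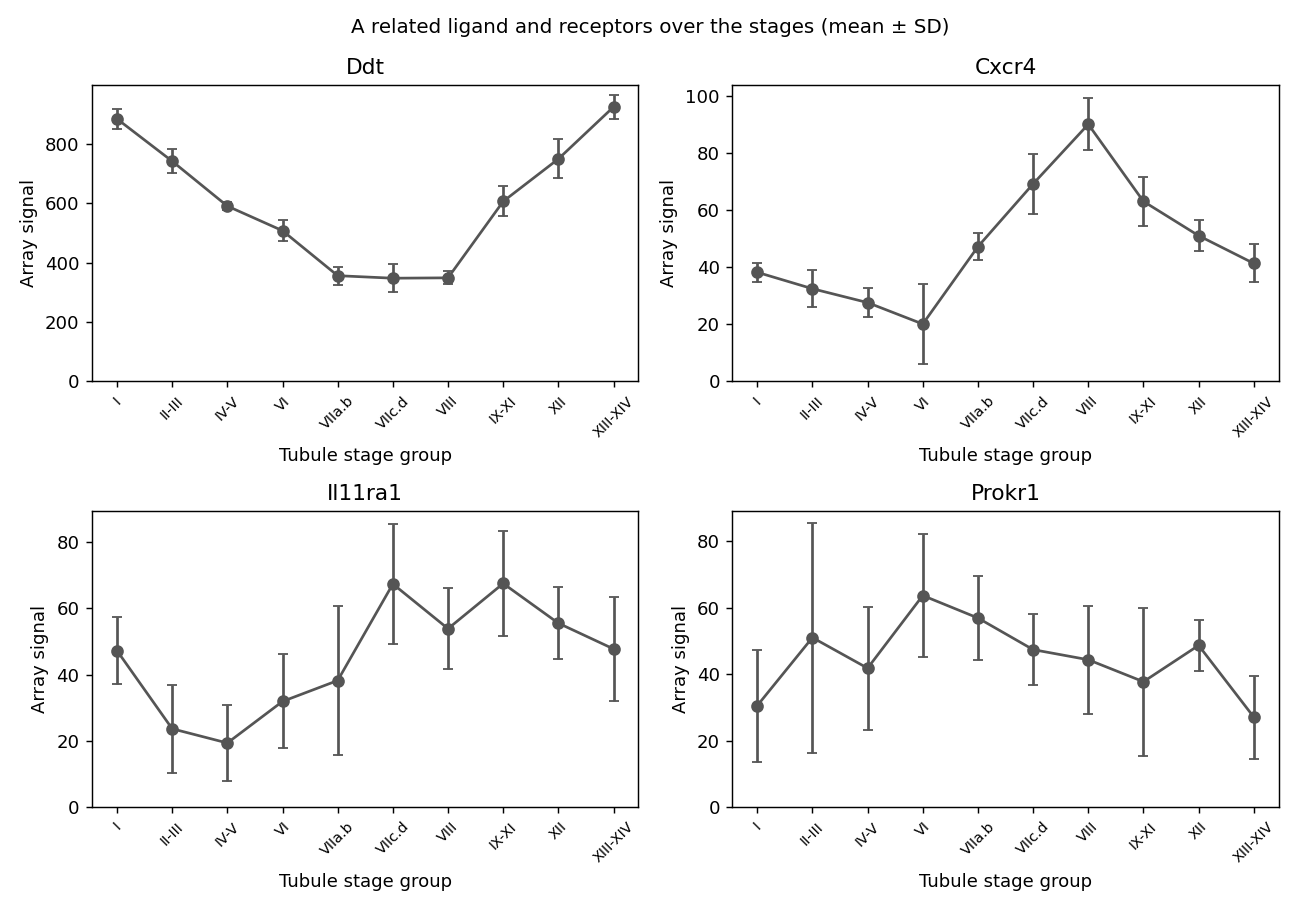
Array signal (mean ± SD, n = 5 and 4 at IV-V) over the tubule stage groups for Ddt, the relative of Mif, for Cxcr4, Il11ra1 and Prokr1, which encode receptors. Ddt was lowest from VIIa.b to VIII and Cxcr4 highest at VIII, and Prokr1 varied widely within stage groups.

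Genes with the most similar course over the 15 group means of log2 signal, by Pearson correlation among 17498 probe sets with 1 gene symbol, were closer for Il11 and Prok2 than for Mif. For Il11 they were Ttll3, for a tubulin-modifying ligase (r = 0.97), Prorp (0.97), Wfdc3 (0.97), Ttll9 (0.97) and Septin3 (0.97). Ttll3 had 217 in round spermatids, 24.5 in pachytene spermatocytes and 275 at IV-V, its highest stage. For Prok2 they were C2h4orf46 (r = 0.98), Cklf, for a chemokine-like factor (0.98), Asb1 (0.97), Sugp2 (0.96) and Mrgbp (0.94). Cklf had 584 in pachytene spermatocytes, 62.4 in round spermatids and 428 at IX-XI. For Mif the highest values were 0.89 for Cyth3 and 0.88 for Gpi, an enzyme of glycolysis that also acts as a cytokine outside the cell, followed by Nmt2 (0.87), Kcnip3 (0.86) and Dlgap4 (0.86). Gpi had 764 in Sertoli cells, 541 in the earliest germ cell group, 65.0 in pachytene spermatocytes, 259 in round spermatids and 630 at stage VIII. These correlations are descriptions over 15 groups that share 1 scaling, and carry no test.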

How the data were processed

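Per the submitters' processing notes, array signals were made with MAS5 (no version given) by the authors from Affymetrix rat arrays hybridised with biotinylated cRNA from 6 µg of total RNA. The deposited values are signal intensity on a linear scale; their mean, trimmed by 2% at both ends, is 100 in every array. No further step is given in the sources used here. The 57 control probe sets were left out, and 31042 used. Symbols came from the platform's table, updated through RefSeq (GRCr8). The RefSeq table lists 9 loci named Mif-ps and 4 genes named Mifl, none with a probe set of its own symbol here, and signal from them in the Mif probe set was not checked. Groups came from the sample titles. The labels call the tubule samples independent; for the other groups they do not state separate animals, so that p-values there measure the spread between samples, which may be technical.

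Log2 of signal plus 5.11 was fitted with limma 3.58.1 in R 4.3.3, with a variance trend, in 49 tubule samples, in 54 with whole testis and in 15 isolated cell samples. Probe sets above 43.7, the table median, in at least 3 samples of a fit were tested. p-values were two-sided and adjusted by Benjamini-Hochberg over all tested probe sets; calls needed an adjusted p under 0.05 and at least 2-fold. The scripts were tested on simulated data. All probe sets of the members are reported, with the list genes called, and for each member the 5 genes of highest correlation over group means. Of the ligands and receptors that were not called, only a part is reported. The ligand genes Il6, Cntf, Clcf1 and Osm and the receptor genes Il6r, Lifr and Il27ra were measured but are not described, and Cxcr2 and Ackr3 are named without values. A list or marker gene with several probe sets was read from the one with the highest mean log2 signal over all samples. Its other probe sets are not reported. Among such genes were Cxcr4 (3 probe sets), Il6st (4) and Cd44, Jak1 and Cntfr (2 each). The members and lists were chosen with earlier results of these data known. Tubule samples of the same replicate number had a mean correlation of deviations of 0.06 (41 of 216 pairs above 0.1), against -0.01 for pairs of different number. That mean is over many probe sets and does not show how the 3 genes behaved. The samples were not treated as paired, except where the replicate number was used as a block. Alternatives were other constants, no filter, quantile normalization, no trend, the replicate number as a block and leaving out samples. With 3 to 5 arrays a group, their number sets the precision.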

Additional observations from a re-analysis of the deposited data

Results flagged for a closer look

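In 42 groups of 4 or 5 samples, 4 had 1 sample far from the others for 1 of the 3 genes; chance gives about 1 in 20. Replicate 4 of pachytene spermatocytes had a Mif signal of 20.8, against 10.6 to 11.7 in the others. Replicate 1 of stage XIII-XIV had a Mif signal of 177, against 283 to 314. Replicate 4 of stage XII had an Il11 signal of 44.7, against 8.20 to 14.2. Replicate 3 of Sertoli cells had an Il11 signal of 4.45, against 1.72 to 2.08, all under the constant of 5.11.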

How the results depend on the processing

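Over 56 alternatives, the stage profiles of Mif, Il11 and Prok2 kept their direction and call, with log2 ranges of 2.90 to 3.27, 1.58 to 3.06 and 1.85 to 2.96. With the table median as the constant, the difference of Prok2 between stages with and without round spermatids was -0.95, the called steps numbered 1 for Il11 and 0 for Prok2, list genes called were 2 over stages, 1 in whole testis and 5 in spermatogonia plus early spermatocytes against Sertoli cells, and the log2 difference of round spermatids over pachytene spermatocytes was 2.80 for Mif, 2.29 for Il11 and -2.32 for Prok2. With a constant of 1, Prok2 had 2 called steps and that difference was 4.66 for Mif and 4.84 for Il11. These shifts follow from the constant, which weighs most on weak signals. With quantile normalization, which moved the median of all probe sets by -0.13 between spermatogonia plus early spermatocytes and Sertoli cells, Prok2 there was -1.27 and passed 2-fold, and 1 list gene, Tyk2, was called in round spermatids against pachytene spermatocytes; the cause was not tested. Leaving out single samples gave 1 to 3 called steps for Mif, 2 to 3 for Il11, 1 to 2 for Prok2, 0 to 1 list genes in round spermatids against pachytene spermatocytes, -1.04 to -0.69 for Il11 in whole testis and -1.15 to -0.67 for Prok2 in spermatogonia plus early spermatocytes against Sertoli cells. With the replicate block, stage ranges were called as before, at 3.18 for Mif, 2.76 for Il11 and 2.88 for Prok2; the count of stage-regulated probe sets went from 7240 to 7381, no call of the 3 genes changed, and of the list genes Il6st lost its call.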
